A study of Mus musculus with 8 samples.

Results

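The 10 genes described here encode the liver X receptors (LXR), the transporters that carry cholesterol out of cells, and proteins that act beside them in cholesterol clearance: Nr1h3, Nr1h2, Abca1, Abcg1, Scarb1, Abcg5, Abcg8, Mylip, Lcat and Pltp. They were taken by symbol from a table of 24411 genes, all 10 were found there, and all 10 passed the filter on low counts together with 12122 genes in all. RNA of mouse liver hepatocytes was sequenced in 4 libraries labelled as a conditional Taf2 knockout limited to hepatocytes (TAF2 KO) and 4 libraries labelled wild type (WT). Per the series' design text, the isolated hepatocytes were plated and taken for RNA 2 days later. Taf2 encodes a subunit of TFIID, the complex that recognises core promoters. The labels do not state the allele, the Cre driver, the strain or age of the mice, or whether each library came from a separate animal, so p-values measure the spread between these libraries, which may be technical.

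Taf2 averaged 13.9 ± 1.26 CPM in knockout libraries and 44.04 ± 2.05 CPM in wild-type libraries (SD, n = 4 each), with no overlap, so each library matched its label. CPM here means counts scaled to a common library size of 1000000 after TMM adjustment, and totals ran from 20287023 to 23933589 counts per knockout library and from 18947059 to 22824568 per wild-type library. The hepatocyte label was met in both genotypes. The 12 hepatocyte markers summed to 76692 to 83965 CPM in knockout libraries and 62780 to 67714 CPM in wild-type libraries. In the knockout 7 of them were higher and 4 lower, against 30.2% and 31.2% of all genes tested. Most of the sum was Alb, the albumin gene, and the others summed to 23342 to 24538 CPM in knockout libraries and 26520 to 27612 CPM in wild-type libraries, the opposite direction.

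The LXRs are nuclear receptors that bind oxysterols, the oxidised derivatives of cholesterol, and act as heterodimers with the retinoid X receptors (RXR) on a direct repeat of a hexamer recognition sequence. In the liver they are known to promote the removal of excess cholesterol, through efflux to high-density lipoprotein (HDL), secretion into bile and degradation of lipoprotein receptors, and to raise fatty acid synthesis. Core promoters are where TFIID binds, and promoter letters are shown for that reason.

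Promoter sequences came from RefSeq on build GRCm38.p6, the same assembly as the mm10 of the deposited counts, and 8 of the 10 genes had an entry. Abcg1 and Scarb1 had none, so no motif was searched for in their promoters. Each window ran from 250 bases before to 50 bases after a start site. The sequences printed are the 80 bases before the start sites of Abca1 and Mylip, which are members that moved in opposite directions, and the whole interval between the divergent start sites of Abcg5 and Abcg8, which encode the subunits of 1 transporter. The Abca1 stretch lies at chr4:53159896-53159975 on the minus strand, that of Mylip at chr13:45389662-45389741 on the plus strand, and the Abcg5 and Abcg8 interval at chr17:84683012-84683120, written on the plus strand, the strand of Abcg8. Capitals mark TATAAA in all 3, GATAAG in the interval (where both motifs read on the minus strand), and in Abca1 a stretch that resembles a direct repeat of the recognition hexamer.
Abca1: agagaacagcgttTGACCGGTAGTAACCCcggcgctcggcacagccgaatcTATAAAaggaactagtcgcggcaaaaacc
Mylip: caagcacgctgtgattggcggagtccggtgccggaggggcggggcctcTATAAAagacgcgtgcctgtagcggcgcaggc
Abcg5-Abcg8 interval: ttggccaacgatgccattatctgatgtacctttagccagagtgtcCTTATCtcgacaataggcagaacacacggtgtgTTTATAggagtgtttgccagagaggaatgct

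The TATA box letters, TATAAA, began 29 bases before the start site of Abca1 and 32 bases before that of Mylip. On the strand of the gene, 8.32% of 32851 promoter windows held these letters, and 13.6% held them on either strand. In the interval of 109 bases, they lay on the Abcg5 strand, 84 bases before the Abcg5 start site and 31 bases before that of Abcg8. The GATA letters, GATAAG, also lay there on the Abcg5 strand, and 7.44% of windows held them on either strand. The direct repeat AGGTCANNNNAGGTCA, searched on both strands, was in none of the members' windows and in 0.0152% of all windows. The closest stretch in the Abca1 window, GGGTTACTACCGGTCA on the strand opposite to the gene, began 67 bases before the start site and matched 9 of the 12 fixed letters. A match at least that close was found in 21.9% of windows. Whether LXR binds this stretch was not tested, and a count of matching letters cannot decide it. The single hexamer AGGTCA was in 16.3% of windows and in none of the members'. The GC box GGGCGG was found for Abca1, Mylip and Pltp (35.7% of windows) and the E-box CACGTG for Abca1 (7.15%), all on either strand. Pltp also held TATAAA, 36 bases after its start site, and Lcat held GATAAG.

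Of the 10 genes, 9 passed the test between knockout and wild type, 7 higher and 2 lower in the knockout. The background was high, because 61.4% of all genes tested passed, 30.2% higher and 31.2% lower (edgeR's quasi-likelihood test, Benjamini-Hochberg adjusted p under 0.05). The receptor gene Nr1h3 and the transporter gene Abca1 were lower, and Nr1h2, Abcg1, Scarb1, Abcg8, Mylip, Lcat and Pltp were higher. Abcg1 and Mylip, 2 of the 10 genes, passed with a log2 fold change of 1 or more in size, against 9.50% of all genes. The genotypes did not overlap for 8 of the 10 genes, all but Abcg5 and Lcat, against 54.7% of all genes. The median absolute log2 fold change was 0.61 over the 10 genes and 0.22 over all genes. Because the 10 genes were chosen with earlier results of these data known, these comparisons with all genes are descriptive only. Fold changes are knockout over wild type. In bulk RNA of plated cells, fewer cells of a type and less RNA per cell cannot be told apart.

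**Figure D1:**
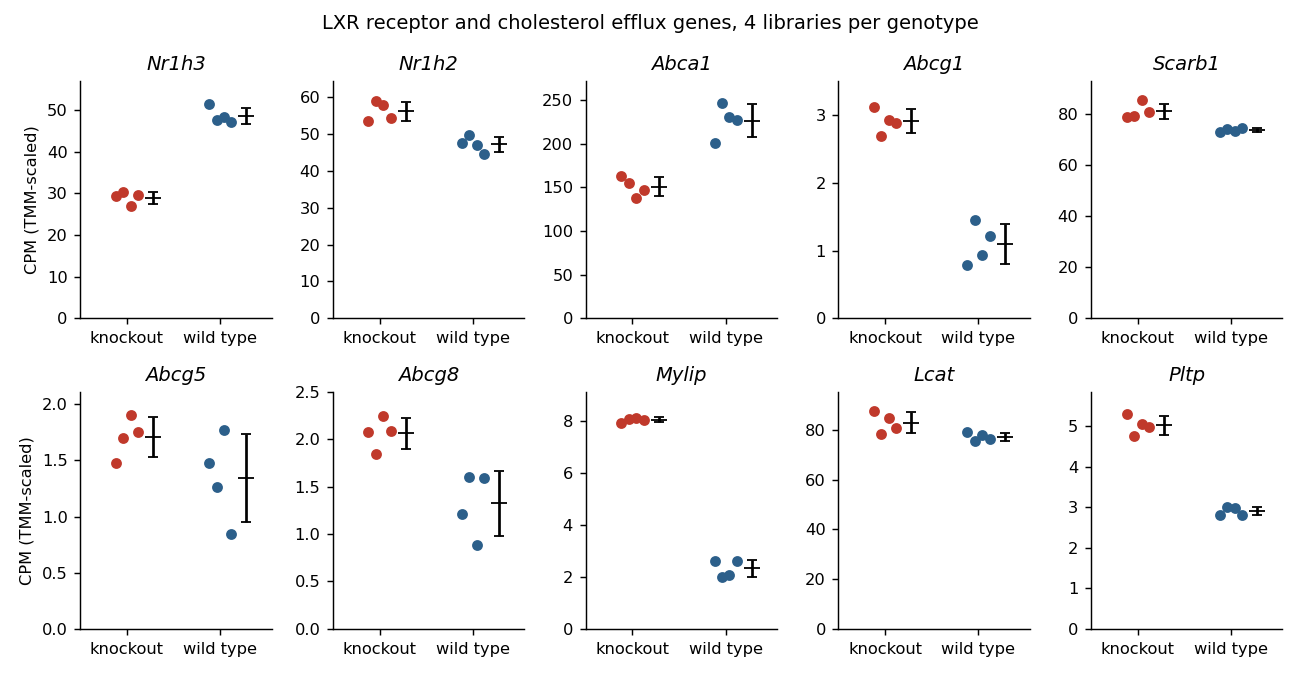
Level of each of the 10 genes in CPM (vertical axes, linear from 0) in the 4 knockout libraries (red) and 4 wild-type libraries (blue), with the mean and SD in black beside the points. Nr1h3 and Abca1 lie lower in all knockout libraries than in any wild-type library, Mylip and Abcg1 lie higher, and the points of Abcg5 and Lcat overlap.

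**Figure D2:**
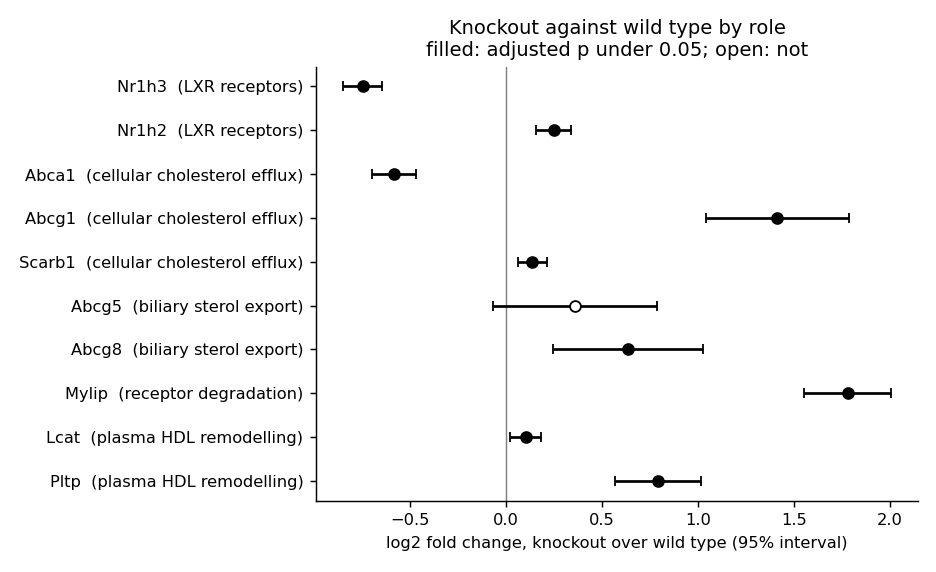
Log2 fold change of each gene, knockout over wild type (horizontal axis), with its 95% interval from the edgeR fit, ordered by role; filled points have an adjusted p under 0.05. Only Nr1h3 and Abca1 lie left of 0, and the interval of Abcg5 reaches from -0.071 to 0.78.

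The 2 receptor genes moved in opposite directions. Nr1h3 encodes LXRα, the form known to be abundant in liver, and lies on chromosome 2 from 91184061 to 91202834 (minus strand, mm10). It had 29.3, 30.2, 26.9 and 29.5 CPM in knockout libraries 1 to 4, against 51.5, 47.6, 48.3 and 47.1 CPM in wild-type libraries 1 to 4. Every knockout value lay well under the lowest wild-type value, and the knockout mean was 59.6% of the wild-type mean. The fitted change was -0.75 on the log2 scale, with SE 0.048 and an edgeR adjusted p of 4.34e-11. Its exons share 34 bases with those of Gm13783 on the same strand. The deposited counts hold no entry for Gm13783, and its part in those of Nr1h3 was not tested. Nr1h2, on chromosome 7 from 44549616 to 44553951 (minus strand), encodes LXRβ, the broadly expressed form. It had 53.5, 58.9, 57.8 and 54.4 CPM in knockout libraries and 47.7, 49.6, 47.1 and 44.6 CPM in wild-type libraries. The lowest knockout library stood just above the highest wild-type library, with a log2 fold change of 0.25 (SE 0.044, edgeR adjusted p = 6.06e-05).

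The balance of the receptor transcripts therefore differed between the genotypes. Counts of Nr1h3 were 35.4%, 33.9%, 31.8% and 35.2% of the 2 genes' counts in knockout libraries 1 to 4, against 51.9%, 49.0%, 50.6% and 51.3% in wild-type libraries 1 to 4. The log2 ratio of Nr1h3 to Nr1h2 was -0.95 ± 0.11 in knockout libraries and 0.041 ± 0.075 in wild-type libraries (SD, n = 4 each). The difference was -0.99, and an exact two-sided permutation test of 4 against 4 libraries gave p = 0.0286, the smallest this design allows, or 0.0429 adjusted over the 3 ratios compared. Both genes had separated without overlap in opposite directions, so this p followed from their levels and is not further evidence. Per kilobase of the longest annotated transcript, Nr1h3 stood at 14.8 ± 0.731 CPM in knockout libraries and 24.9 ± 1.03 CPM in wild-type libraries, and Nr1h2 at 28.1 ± 1.30 CPM in knockout libraries and 23.6 ± 1.03 CPM in wild-type libraries. The summed CPM of the receptor genes ran from 82.8 to 89.1 in knockout libraries and from 91.7 to 99.2 in wild-type libraries.

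Among the genes of cellular cholesterol efflux, Abca1 was lower and Abcg1 higher in the knockout. Abca1, on chromosome 4 from 53030787 to 53159895 (minus strand), encodes the transporter that loads cholesterol and phospholipid onto lipid-poor apolipoprotein A-I, the first step of HDL formation. It had 163, 155, 138 and 147 CPM in knockout libraries 1 to 4, against 201, 246, 231 and 227 CPM in wild-type libraries 1 to 4. All knockout libraries were lower than all wild-type libraries, and the mean was 66.6% of that of the wild type (log2 fold change -0.59, SE 0.055, edgeR adjusted p = 1.46e-08).

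Abcg1, on chromosome 17 from 31057675 to 31117988 (plus strand), encodes a transporter that passes cholesterol to mature HDL and is known best from macrophages. Its counts were few. The knockout libraries held 74, 54, 68 and 61 counts and the wild-type libraries 18, 30, 18 and 26. In CPM this was 2.91 ± 0.178 in knockout libraries and 1.10 ± 0.300 in wild-type libraries (SD, n = 4 each), with no overlap. The log2 fold change was 1.41 (SE 0.18, edgeR adjusted p = 9.39e-07). Of 14 tested macrophage markers 13 were higher and 0 lower in the same knockout libraries, with a median log2 fold change of 2.32. Over all genes tested 30.2% were higher and 31.2% lower. The summed level of these markers was 282 to 310 CPM against 121 to 151 CPM in the wild type. Cd68 was the most abundant, at 172 CPM in knockout libraries and 84.1 CPM in wild-type libraries, and without it the sums were 122 to 129 CPM in knockout libraries and 48.6 to 52.1 CPM in wild-type libraries. None of the listed macrophage markers was at 0 in either genotype, and their part in the change of Abcg1 was not tested.

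Because these transporter genes moved apart, the ratio of Abca1 to Abcg1 counts was 51.9, 57.5, 46.9 and 50.9 in knockout libraries 1 to 4, against 257, 169, 245 and 187 in wild-type libraries 1 to 4. On the log2 scale the ratio was 5.69 ± 0.122 in knockout libraries and 7.72 ± 0.296 in wild-type libraries (difference -2.03, exact two-sided permutation p = 0.0286, adjusted p = 0.0429, n = 4 each). Here too the p followed from the separate levels of both genes and is not further evidence. Abca1 was the more abundant per kilobase in both genotypes, at 14.7 ± 1.04 CPM in knockout libraries and 22.04 ± 1.85 CPM in wild-type libraries, while Abcg1 stood at 0.500 ± 0.0306 CPM in knockout libraries and 0.188 ± 0.0514 CPM in wild-type libraries.

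Scarb1, on chromosome 5 from 125277087 to 125341094 (minus strand), encodes the HDL receptor SR-BI, through which hepatocytes take up cholesteryl ester. It had 78.8, 79.2, 85.5 and 80.8 CPM in knockout libraries, against 73.1, 74.2, 73.2 and 74.6 CPM in wild-type libraries. The genotypes did not overlap, but the difference was small, at 0.14 on the log2 scale (SE 0.036, edgeR adjusted p = 0.00249). The adaptor gene Pdzk1, whose protein holds SR-BI at the cell surface in liver, averaged 10.7 ± 0.913 CPM in knockout libraries and 9.21 ± 0.810 CPM in wild-type libraries (log2 fold change 0.22, SE 0.084, edgeR adjusted p = 0.0296).

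**Figure D3:**
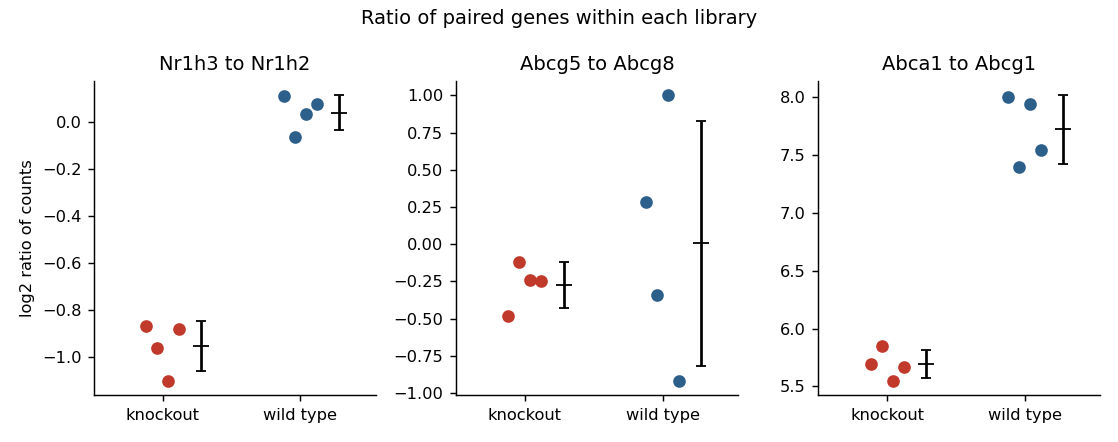
Log2 ratio of the counts of 2 genes within each library (vertical axes), for knockout libraries (red) and wild-type libraries (blue), with mean and SD in black. The ratios of Nr1h3 to Nr1h2 and of Abca1 to Abcg1 are lower in all knockout libraries than in any wild-type library, while those of Abcg5 to Abcg8 overlap.

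Abcg5 and Abcg8 encode the subunits that pair to export cholesterol and plant sterols into bile. Both lie on chromosome 17, Abcg5 from 84658234 to 84683011 on the minus strand and Abcg8 from 84676302 to 84700333 on the plus strand, and their principal start sites face away from each other across the interval printed above. The annotated exons share 82 bases on opposite strands, and reads of the pair cannot be told apart there without a known strand setting. The deposited counts of both genes were whole in all 8 libraries. Both were scarce. Abcg5 had 35, 34, 44 and 37 counts in knockout libraries 1 to 4 and 34, 26, 34 and 18 counts in wild-type libraries 1 to 4. At 1.71 ± 0.174 CPM in knockout libraries and 1.34 ± 0.391 CPM in wild-type libraries the groups overlapped and Abcg5 did not pass (log2 fold change 0.36, 95% interval -0.071 to 0.78, edgeR adjusted p = 0.139). Abcg8 had 49, 37, 52 and 44 counts in knockout libraries and 28, 33, 17 and 34 counts in wild-type libraries. It averaged 2.06 ± 0.164 CPM in knockout libraries and 1.32 ± 0.343 CPM in wild-type libraries without overlap, and it passed (log2 fold change 0.63, 95% interval 0.24 to 1.03, edgeR adjusted p = 0.00620).

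That Abcg8 passed and Abcg5 did not does not show that they differed. The log2 ratio of Abcg5 to Abcg8 was -0.27 ± 0.15 in knockout libraries and 0.0047 ± 0.82 in wild-type libraries, a difference of -0.28 (exact two-sided permutation p = 0.629, n = 4 each), and without wild-type replicate 3 the difference was 0.053. These ratios rest on 17 to 52 counts a gene and library. The coefficient of variation of Abcg5 was 10.2% between knockout libraries and 29.2% between wild-type libraries. That of Abcg8 was 7.95% between knockout libraries and 25.9% between wild-type libraries. Whether these spreads differed was not tested.

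Mylip had the largest change of the 10 genes. It lies on chromosome 13 from 45389742 to 45412022 (plus strand) and encodes IDOL, a ubiquitin ligase that LXR induces and that marks lipoprotein receptors for degradation. It had 7.91, 8.09, 8.13 and 8.05 CPM in knockout libraries, against 2.60, 1.99, 2.09 and 2.62 CPM in wild-type libraries. The knockout mean was 346% of the wild-type mean. The coefficient of variation was 1.16% between knockout libraries and 14.3% between wild-type libraries, but counts were few and a difference in spread was not tested. The log2 fold change was 1.78 (SE 0.11, edgeR adjusted p = 1.72e-11), from 162 to 188 counts in knockout libraries and 40 to 60 counts in wild-type libraries.

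Genes of lipoprotein receptors differed in direction. Of 11 genes of this receptor family and its regulators 1 was higher and 6 were lower in the knockout (median log2 fold change -0.20, against -0.0035 over all genes tested). Over all genes tested 30.2% were higher and 31.2% lower. Vldlr, the very-low-density lipoprotein receptor gene, averaged 121 ± 10.5 CPM in knockout libraries and 39.8 ± 3.25 CPM in wild-type libraries (log2 fold change 1.60). Lrp1, a related endocytic receptor gene, changed by -0.57. The larger edgeR adjusted p of these 2 genes was 1.10e-09. Ube2d3, an E2 ubiquitin-conjugating enzyme gene and the most abundant of the list, did not pass, at 346 ± 4.07 CPM in knockout libraries and 352 ± 7.00 CPM in wild-type libraries (log2 fold change -0.026, edgeR adjusted p = 0.515).

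The genes of the plasma proteins that remodel HDL were both higher. Lcat, on chromosome 8 from 105939551 to 105943382 (minus strand), encodes the enzyme that esterifies cholesterol on HDL. It had 87.6, 78.2, 84.8 and 80.9 CPM in knockout libraries, against 79.1, 75.5, 77.8 and 76.5 CPM in wild-type libraries. The groups overlapped, and the log2 fold change of 0.10 (SE 0.039, edgeR adjusted p = 0.0276) was the smallest of the 10. Its call ended without knockout replicate 1 (adjusted p = 0.0971) or 3 (0.0545), and without wild-type replicate 2 (0.0720), 3 (0.0519) or 4 (0.0636), in a range over all alternatives from 0.00606 to 0.0971. Pltp, on chromosome 2 from 164839518 to 164857711 (minus strand), encodes the phospholipid transfer protein, a known LXR target. It had 5.29, 4.75, 5.06 and 4.97 CPM in knockout libraries, against 2.82, 3.01, 2.98 and 2.81 CPM in wild-type libraries. All knockout libraries stood higher, and the log2 fold change was 0.79 (SE 0.11, edgeR adjusted p = 2.63e-06). The exons of Pltp share 495 bases with those of Ctsa on the opposite strand. Ctsa, a lysosomal carboxypeptidase gene, averaged 123 ± 6.46 CPM in knockout libraries and 117 ± 2.72 CPM in wild-type libraries (log2 fold change 0.07, edgeR adjusted p = 0.149). Reads of the pair cannot be told apart in the shared bases without a known strand setting. The deposited counts of Pltp were whole in all 8 libraries, and the part of Ctsa in them was not tested.

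Ordered by CPM per kilobase, the levels ran in knockout libraries from Lcat (61.8 ± 3.11) through Scarb1 (32.2 ± 1.20), Nr1h2 (28.1 ± 1.30), Nr1h3 (14.8 ± 0.731), Abca1 (14.7 ± 1.04), Pltp (2.77 ± 0.124), Mylip (2.63 ± 0.0305), Abcg5 (0.727 ± 0.0741) and Abcg8 (0.563 ± 0.0447) to Abcg1 (0.500 ± 0.0306). In wild-type libraries Lcat (57.6 ± 1.17) and Scarb1 (29.3 ± 0.293) also led, followed by Nr1h3 (24.9 ± 1.03), Nr1h2 (23.6 ± 1.03), Abca1 (22.04 ± 1.85), Pltp (1.61 ± 0.0578), Mylip (0.759 ± 0.109), Abcg5 (0.570 ± 0.167), Abcg8 (0.361 ± 0.0936) and Abcg1 (0.188 ± 0.0514). Neighbours whose difference was smaller than the sum of their SDs were Nr1h3 and Abca1, Pltp and Mylip, and Abcg8 and Abcg1 in the knockout. In the wild type they were Nr1h3 and Nr1h2, Nr1h2 and Abca1, Mylip and Abcg5, and Abcg5 and Abcg8. Nr1h2 stood above Nr1h3 in the knockout by more than their spread, while in the wild type the order of these receptor genes was not resolved.

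The partners and coregulators of LXR changed in both directions. Of 15 genes 4 were higher and 7 were lower in the knockout (median log2 fold change -0.03), against 30.2% and 31.2% of all genes tested. Nrip1, which encodes the corepressor RIP140, averaged 55.2 ± 1.51 CPM in knockout libraries and 33.1 ± 2.08 CPM in wild-type libraries (log2 fold change 0.74). Rxrb, an RXR gene, rose by 0.45 and Tbl1xr1, a subunit of the NCoR corepressor complex, by 0.37. Ncor1, the nuclear receptor corepressor gene and the most abundant member, averaged 126 ± 4.56 CPM in knockout libraries and 170.04 ± 8.37 CPM in wild-type libraries (-0.43). The coactivator genes Ncoa2 and Carm1 changed by -0.48 and -0.30. The largest edgeR adjusted p of these 6 genes was 5.13e-05. Rxra, the main RXR gene of liver, was at 122 ± 3.01 CPM in knockout libraries and 137 ± 2.72 CPM in wild-type libraries (-0.18, adjusted p = 0.000210).

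Of 18 other genes known as LXR targets 16 were tested, of which 9 were higher and 5 were lower in the knockout (median log2 fold change 0.11). The shares over all genes tested were 30.2% higher and 31.2% lower. Apoe, the apolipoprotein E gene and the most abundant, averaged 7443 ± 236 CPM in knockout libraries and 5683 ± 133 CPM in wild-type libraries (log2 fold change 0.39). Smpdl3a, a phosphodiesterase gene, rose by 0.50. Cd5l, a secreted macrophage protein gene that also stands in the macrophage list, averaged 9.22 ± 0.531 CPM in knockout libraries and 3.63 ± 0.275 CPM in wild-type libraries (1.35). Fasn, the fatty acid synthase gene, averaged 300.2 ± 20.4 CPM in knockout libraries and 427 ± 15.4 CPM in wild-type libraries (-0.51). Lpcat3, which encodes a phospholipid acyltransferase, changed by -0.43. Tnfaip2 averaged 3.86 ± 0.329 CPM in knockout libraries and 7.73 ± 0.873 CPM in wild-type libraries. The largest edgeR adjusted p of these 6 genes was 4.99e-06. Srebf1, the gene of the transcription factor through which LXR drives fatty acid synthesis, averaged 84.03 ± 0.923 CPM in knockout libraries and 78.5 ± 3.47 CPM in wild-type libraries (0.10, adjusted p = 0.0254). Cyp7a1, which encodes the rate-limiting enzyme of bile acid synthesis and is an LXR target in mice, was too scarce to test, at 8, 6, 7 and 5 counts in knockout libraries and 2, 2, 1 and 2 counts in wild-type libraries.

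The enzymes that make or clear oxysterols also split. Of 8 tested genes 5 were higher and 3 were lower in the knockout (median log2 fold change 0.20), against 30.2% and 31.2% of all genes tested. Hsd3b7, an enzyme of bile acid synthesis, averaged 103 ± 4.81 CPM in knockout libraries and 71.6 ± 3.57 CPM in wild-type libraries (log2 fold change 0.52), and Hsd11b1, a reductase of glucocorticoids and oxysterols, rose by 0.31. Ch25h, which makes 25-hydroxycholesterol and is known to be induced by interferon in macrophages, stood at 1.11 ± 0.335 CPM in knockout libraries and 0.0834 ± 0.0727 CPM in wild-type libraries, with few reads (3.63, SE 0.46). Cyp7b1, an oxysterol hydroxylase gene, averaged 22.6 ± 2.08 CPM in knockout libraries and 50.9 ± 2.23 CPM in wild-type libraries (-1.17). Cyp39a1, which encodes an enzyme for 24-hydroxycholesterol, changed by -0.69. The largest edgeR adjusted p of these 5 genes was 8.59e-07.

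**Figure D4:**
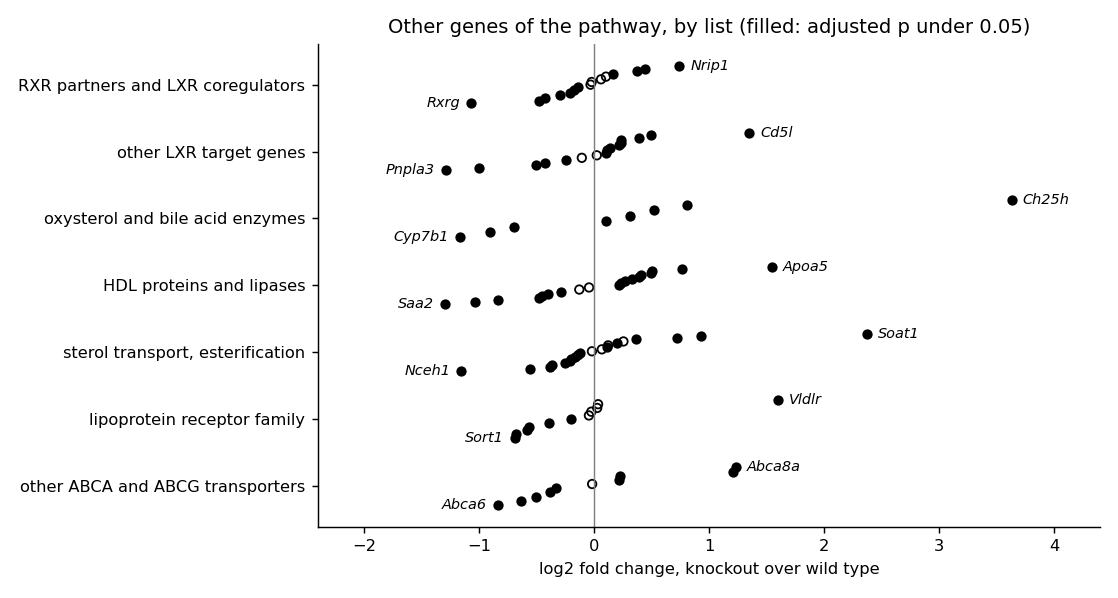
Log2 fold change, knockout over wild type (horizontal axis), of every tested gene in 7 lists around the LXR pathway; each point is 1 gene, filled where the adjusted p is under 0.05, and the lowest and highest gene of each list is named. Each list holds genes on both sides of 0, and Ch25h lies farthest right at 3.63.

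Among HDL apolipoproteins, lipases and partners of SR-BI, 10 of 19 tested genes were higher and 7 lower in the knockout (median log2 fold change 0.22). The shares over all genes tested were 30.2% higher and 31.2% lower. Apoa5, an apolipoprotein that lowers plasma triglyceride, averaged 65.3 ± 3.75 CPM in knockout libraries and 22.5 ± 1.64 CPM in wild-type libraries (log2 fold change 1.54). Saa4 and Apoa4 rose by 0.77 and 0.49. The acute phase apolipoprotein genes Saa1 and Saa2 changed by -1.04 and -1.30, and Apoc2 by -0.84. The counts of these 3 genes were not whole in any of the 8 libraries, so they are uncertain where the authors' counting divided reads. Apoa1, whose protein accepts the lipid that ABCA1 exports, averaged 3756 ± 62.8 CPM in knockout libraries and 4588 ± 58.8 CPM in wild-type libraries (-0.29). The largest edgeR adjusted p of these 7 genes was 1.92e-07.

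For sterol transport and esterification inside the cell, 6 of 20 tested genes were higher and 9 lower in the knockout (median log2 fold change -0.07). The shares over all genes tested were 30.2% higher and 31.2% lower. Stard5, a cytosolic sterol carrier gene, averaged 79.7 ± 8.11 CPM in knockout libraries and 41.8 ± 1.58 CPM in wild-type libraries (log2 fold change 0.93). Npc2, which hands cholesterol to NPC1 in lysosomes, rose by 0.36, and Soat1, a cholesterol acyltransferase gene, by 2.37, at 1.98 ± 0.177 CPM in knockout libraries and 0.373 ± 0.159 CPM in wild-type libraries. Nceh1, a cholesteryl ester hydrolase gene, averaged 15.5 ± 2.66 CPM in knockout libraries and 34.4 ± 2.15 CPM in wild-type libraries (-1.16), and Lipa, the lysosomal acid lipase gene, and Osbpl1a changed by -0.56 and -0.39. Scp2, the most abundant gene of the list, rose by 0.20. The largest edgeR adjusted p of these 7 genes was 3.77e-05. Among other transporters of the ABCA and ABCG families 4 of 10 tested genes were higher and 5 lower (median -0.17). Abca6, the most abundant, averaged 93.8 ± 4.30 CPM in knockout libraries and 168 ± 6.98 CPM in wild-type libraries (-0.84). Abca2 and Abca3 changed by -0.64 and -0.38, while Abca8a, Abca9 and Abca5 rose by 1.23, 1.21 and 0.22. The largest adjusted p of these 6 genes was 0.00173.

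Markers of other liver cells moved with the genotype beside these results. Over all genes tested 30.2% were higher and 31.2% lower in the knockout. Besides the macrophage list, 9 of 10 tested endothelial markers were higher and 0 lower (median log2 fold change 1.49), with sums of 165 to 174 CPM in knockout libraries and 65.7 to 74.0 CPM in wild-type libraries. Of 11 tested stellate cell and fibroblast markers 10 were higher and 0 lower (median 2.42), with sums of 183 to 198 CPM in knockout libraries and 89.7 to 92.5 CPM in wild-type libraries. Most of these sums was Reln, at 102 CPM in knockout libraries and 61.7 CPM in wild-type libraries (log2 fold change 0.72). Of 5 tested cholangiocyte markers 2 were higher and 3 lower (median -0.27), with sums of 171 to 199 CPM in knockout libraries and 136 to 151 CPM in wild-type libraries, and Cftr was at 0 in the wild type. Lymphocyte and neutrophil markers were near 0, at no more than 0.212 CPM summed in any knockout library and 0.130 CPM in any wild-type library, and Cd3g, Ms4a1 and Nkg7 were at 0 in all 8 libraries. Of the erythroid markers Hba-a2 was at 0 in all libraries and Hbb-bt was at 0 after rounding, and the sums, mostly Alas2, were 18.6 to 20.1 CPM in knockout libraries and 25.3 to 27.9 CPM in wild-type libraries. The part of these cells in the levels of the 10 genes was not tested.

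**Figure D5:**
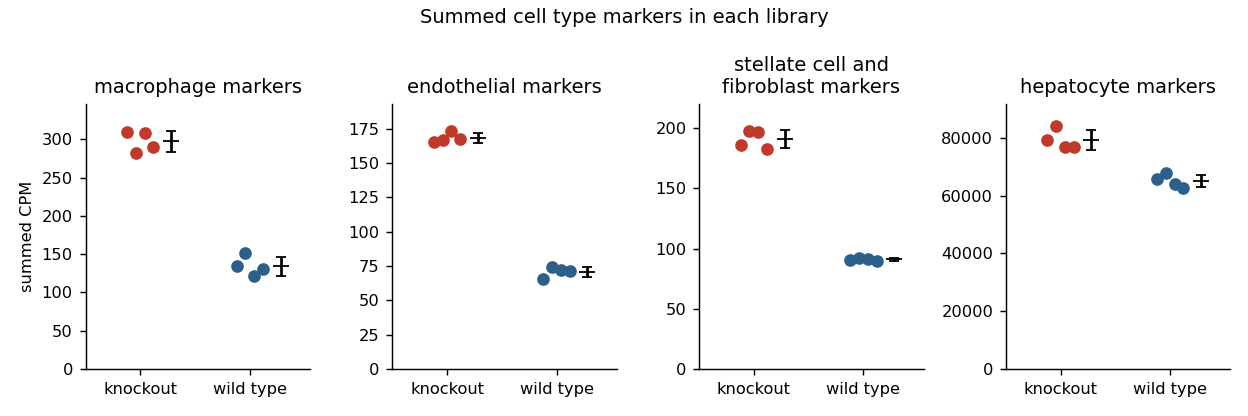
Summed CPM of 4 marker lists (vertical axes, linear from 0) in each knockout library (red) and wild-type library (blue), with mean and SD in black. Macrophage markers sum to 282 to 310 CPM in knockout libraries and 121 to 151 CPM in wild-type libraries, and the other 3 sums are also higher in all knockout libraries, that of the hepatocyte markers through Alb.

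The genes most like Nr1h3 and Abca1 across the 8 libraries were found by the root mean square difference of log2 CPM, after each gene was centred on its own mean, among 9453 genes of at least 5 CPM. For Nr1h3 they were Clmn (0.035), Fads3 (0.037) and Cbs (0.039), whose log2 fold changes were -0.74, -0.77 and -0.75. For Abca1 they were Ceacam1 (0.040), Xk (0.052) and Npr2 (0.058), whose log2 fold changes were -0.59, -0.60 and -0.66. The 8 libraries form 2 genotypes, so this likeness includes the size of the difference between them.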

How the data were processed

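RNA-seq libraries of plated hepatocytes (Illumina TruSeq RNA kit, per the labels), 4 Taf2 knockout and 4 wild type, were assigned to genotypes by their titles. The authors deposited estimated counts per gene, unscaled, which the submitters' processing notes credit to RSEM and the mm10 build; the aligner, the strand setting and any software version are not stated there. Another 8 columns of the table match no sample and were not used. Counts were rounded, kept where filterByExpr passed them (at least 10 in enough libraries, 15 in total), scaled by TMM and compared between genotypes by the quasi-likelihood test of edgeR 4.0.16, adjusted by Benjamini-Hochberg over all genes (R 4.3.3; threshold 0.05). Standard errors were taken from the fold change and its F statistic. Values of 2.85% were not whole, though none of the 10 genes'. Replicate pairs differed by more than sampling noise (chi-square per degree of freedom 3.16 to 8.60).

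Ratios of counts used exact permutation tests. Transcript lengths and coordinates came from GENCODE on mm10, and motif letters were chosen after the promoters had been seen. Other settings tried were scaling by RLE or the upper quartile, DESeq2 1.42.0, limma-voom (limma 3.58.1), 2 other filters, a replicate block, thinning and leaving out each library. The members and lists were chosen with earlier results of these data known. In each list up to 3 called genes with the smallest adjusted p per direction and the most abundant gene are named; some genes under this rule are not reported here. Pdzk1, Srebf1, Cyp7a1, Rxra, Apoa1 and Ctsa were named after their values were seen.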

Additional observations from a re-analysis of the deposited data

How the results depend on the processing

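Over 16 alternatives, 9 of the 10 genes kept their direction and their side of the threshold, Lcat being the exception. Nr1h3 ranged from -0.77 to -0.71, Abca1 from -0.64 to -0.54, Abcg1 from 1.27 to 1.57 and Mylip from 1.71 to 1.88 on the log2 scale, and 6 to 7 of the 10 genes were called higher and 2 lower. Abcg5 did not pass in any (adjusted p from 0.0529 to 0.433). No alternative moved the median of all genes by more than 0.024 on the log2 scale (upper-quartile scaling). Deviations of same-numbered libraries correlated at -0.069 to 0.011, and those of differently numbered libraries at -0.064 to 0.066. No shared effect of the titles' replicate numbers was seen, but with 4 libraries per genotype these correlations cannot exclude pairing. With a replicate block the differences of -0.99 (Nr1h3 to Nr1h2) and -2.03 (Abca1 to Abcg1) had an exact sign-flip p of 0.125, the smallest that 4 pairs allow, and the block changed no other call of the 10 genes. Leaving out each library gave log2 ratio differences of -1.03 to -0.95 for Nr1h3 to Nr1h2, -2.14 to -1.94 for Abca1 to Abcg1 and -0.59 to 0.053 for Abcg5 to Abcg8. Cholangiocyte markers called higher numbered 1 with DESeq2, limma-voom and the replicate block, and were 1 to 2 with a library left out. Erythroid markers called lower were 2 with no low-count filter and 1 to 2 with a library left out. Stellate markers called higher were 6 with at least 1 CPM in every library of a group, which tests fewer genes. The cause of the other changes was not tested. Depth limits Abcg1, Abcg5 and Abcg8, and intervals cover only the spread between these libraries.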
